A study of Homo sapiens with 3 samples.

Results

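Transcripts of 30 p53 target genes were examined in HaCaT keratinocytes that carry oncogenic HRAS, out of 55773 gene symbols in the deposited expression table. The genes were taken by symbol, as targets known from the p53 literature, and all 30 were in the table with a single row each. These genes and the lists set beside them were chosen with earlier results of these data known. HaCaT is an immortalised human keratinocyte line. The table holds expression values only, so no mutation was checked here. All 3 lines express HRAS with the G12V substitution. A further transduction added an empty vector (the vector control), the wild-type form of THG-1 (the WT line) or THG-1 S264A, in which a serine is replaced by alanine. THG-1 is the protein encoded by TSC22D4, and the title of the series links it to the IL-1 and NF-kB pathway. The cells were grown in DMEM with 10% fetal bovine serum. No label names the promoter of the vector or says whether a line was a clone or a pool. Each line was represented by 1 RNA-seq library, so there is no replicate check on any difference between lines.

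The transcription factor p53 is stabilised by DNA damage and by oncogene activity, and binds response elements made of a pair of 10-base units. Its targets halt the cell cycle, drive apoptosis, repair DNA and, through MDM2, return p53 to low levels. In keratinocytes the related factor p63 maintains the basal layer and can bind the same elements. Several of the genes, CDKN1A and GADD45A among them, are also known to respond to p53-independent signals such as MAPK activity and stress kinases.

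Levels are given as RPKM, reads normalised to gene length and to library depth, as the authors deposited them. The depth, recovered from the steps of the values, came to 32055052 reads in the vector control, 12733479 reads in the WT line and 14022885 reads in the S264A line. A gene of 1 kb with 1 read therefore stood at 0.0312, 0.0785 and 0.0713 RPKM in that order. Reads without molecular identifiers are not independent molecules, so intervals made from them cover counting error only. In bulk RNA, fewer cells that express a gene and less RNA per cell cannot be told apart. TSC22D4 stood at 7.98, 64.9 and 51.1 RPKM, high in the lines labelled with THG-1; the vector copy and the endogenous gene were not told apart. All 10 keratinocyte markers were above 17 RPKM in every library. Of the markers of other cell types, 1 of 8 for fibroblasts, 1 of 6 for melanocytes, 1 of 4 for endothelial cells and 1 of 10 for immune cells reached 1 RPKM in any library. LUM, PDGFRA, TYR and NKG7 were at 0 in all libraries. The immune marker that reached 1 RPKM was CD68, and the summed level of the 10 immune markers was 1.39 RPKM in the vector control, 7.26 RPKM in the WT line and 2.15 RPKM in the S264A line. Its part in the differences reported here was not tested.

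Bounds in brackets after a ratio are exact Clopper-Pearson 95% intervals from the reads of both libraries. TP63, which encodes p63, stood at 17.9 RPKM in the vector control, 20.1 RPKM in the WT line and 17.4 RPKM in the S264A line, with ratios to the control of 1.12 (1.06 to 1.18) and 0.973 (0.920 to 1.03). The WT difference depended on scaling: the log2 difference of RPKM + 1 was 0.16, and -0.09 after scaling to equal upper quartiles. TP73, which encodes the related factor p73, was low at 0.798, 0.766 and 0.411 RPKM.

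The first comparison asked which p53 targets differed when wild-type THG-1 was added to HRAS. A small subset was higher and most members stood close to the vector control. A gene was counted as higher or lower when log2((RPKM + 1)/(RPKM + 1)) of the pair of lines reached 1 in size, a 2-fold rule applied to genes that reached 1 RPKM in either line. Of the 30 members 27 could enter, and 4 of them were at least 2-fold higher, namely GADD45A, CDKN1A, GDF15 and PLK3. Over all 11993 genes that entered, 4.53% were at least 2-fold higher. None of the members was at least 2-fold lower by this rule, against 1.54% of all genes. Both counts rest on the pseudocount of 1, which shrinks low genes. As plain RPKM ratios BBC3 (3.46) and TNFRSF10D (2.06) were also more than 2-fold higher. SESN1 (0.446) and RRM2B (0.454) were more than 2-fold lower by that measure, and both passed the rule downward with a pseudocount of 0.1. The median log2 difference of the 30 members was 0.15, and that of all genes entered was -0.01. After scaling to equal upper quartiles both moved down, to -0.03 and -0.22, and PLK3 lay just under the rule at 0.98. The split of all counted genes into higher and lower moved as well, from 74.6% higher to 51.8% after upper-quartile scaling and to 62.7% where the sums were made equal.

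In the S264A line no member reached the 2-fold rule against the empty vector, in either direction. Among the 12010 genes entered, 2.99% passed the rule upward and 0.824% downward. The members nearest to the rule were PLK3 at 0.95, GADD45A at 0.92 and CDKN1A at 0.84 on the log2 scale. This count rests on the filter at 1 RPKM and on the pseudocount of 1, which shrinks low genes. As plain RPKM ratios BBC3 (2.50), PLK3 (2.31), TNFRSF10D (2.29) and GADD45A (2.13) exceeded 2. BBC3 did not enter, being under 1 RPKM in both lines, at 0.395 in the vector control and 0.987 in S264A. With a pseudocount of 0.1 the rule was passed by PLK3, GADD45A and TNFRSF10D. The median of the 30 members was 0.04, beside 0.02 for all genes entered, and -0.05 beside -0.16 with upper-quartile scaling, which took the share of higher among counted genes from 78.4% to 59.3%.

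Set directly against the wild-type THG-1 line, S264A had 2 of 28 entered members at least 2-fold lower, GDF15 at -1.41 and GADD45A at -1.24. CDKN1A, at -0.998, lay just short of the rule, and passed it with median scaling or a pseudocount of 0.1. With a pseudocount of 5 no member passed. Of all 12069 genes entered, 2.23% passed the rule downward and 1.55% upward, while none of the members was higher by that rule. The median of the members was -0.14 and that of all genes 0.02. With the sums made equal the median of all genes was 0.12, and the balance of counted genes turned, to 1.79% downward and 1.85% upward (50.9% higher, from 41.0%), while GDF15 and GADD45A still passed. The first and second comparisons share the empty-vector library, and the third shares a library with each of them.

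**Figure D1:**
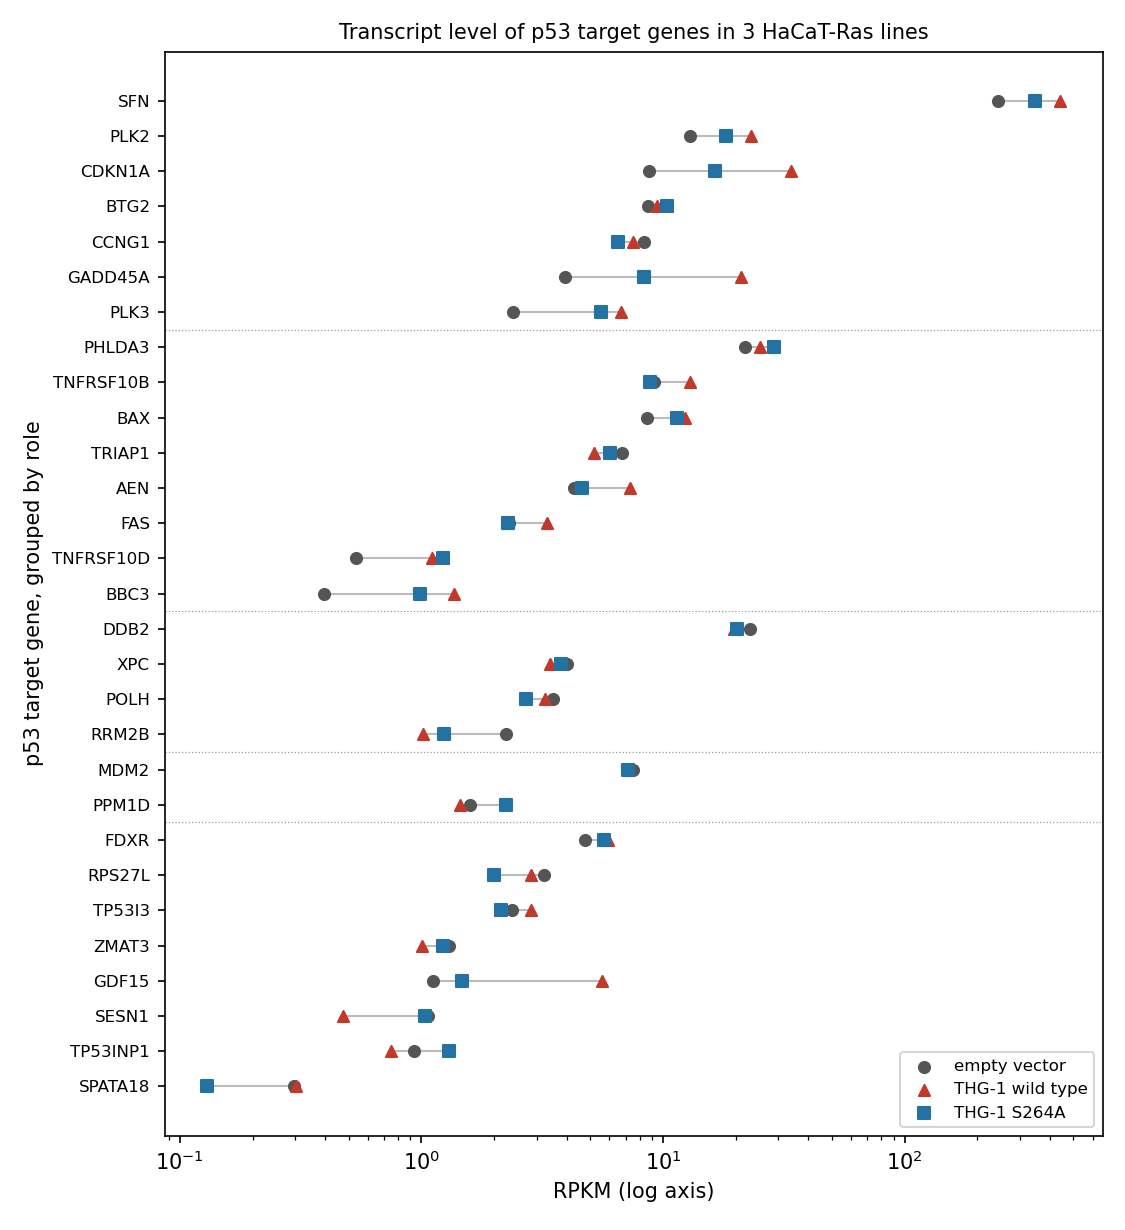
RPKM on a log axis of 29 p53 target genes in the 3 HaCaT-Ras lines, 1 library each, grouped by role (from top to bottom cell cycle arrest, apoptosis, DNA repair, feedback, and metabolism, redox and others); grey lines join the lowest and highest library of a gene. CMBL, at 0 in both THG-1 libraries, is left out. CDKN1A, GADD45A and GDF15 spread widest with the WT line farthest to the right, while the symbols of MDM2, DDB2 and XPC lie close together.

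Of the 4 members past the rule in the WT line, out of 27 entered, 3 were arrest genes, namely CDKN1A, GADD45A and PLK3. The other genes of cell cycle arrest, PLK2, SFN, BTG2 and CCNG1, did not pass. With upper-quartile scaling PLK3 lay just under the rule, at 0.98. Over all genes entered, 4.53% were at least 2-fold higher. CDKN1A encodes p21, an inhibitor of cyclin-dependent kinases and the classical p53 target. It stood at 8.78 RPKM in the vector control, 33.9 RPKM in the WT line and 16.5 RPKM in the S264A line, from 840, 1289 and 690 reads. The wild-type line was highest, and S264A lay between it and the empty vector. WT exceeded the vector control 3.86-fold (3.54 to 4.22) and S264A exceeded it 1.88-fold (1.70 to 2.08). S264A was 2.06-fold (1.87 to 2.26) below WT.

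GADD45A encodes a stress sensor that binds PCNA and activates stress kinases. Its level was 3.92 RPKM in the vector control, 21.1 RPKM in the WT line and 8.34 RPKM in the S264A line. This was the largest ratio of wild type to empty vector among the members counted by the rule, 5.37 (4.63 to 6.25). The S264A line held 2.13 times (1.78 to 2.54) the control level and was 2.53-fold (2.17 to 2.95) below the wild-type line.

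PLK2 and PLK3 encode Polo-like kinases that respond to stress, unlike the mitotic PLK1. PLK3 stood at 2.40 RPKM in the vector control, 6.70 RPKM in the WT line and 5.55 RPKM in the S264A line. Both THG-1 lines were above the empty vector, with ratios of 2.79 (2.36 to 3.30) and 2.31 (1.95 to 2.75), and they differed from each other by a ratio of only 0.829 (0.700 to 0.980). PLK2 was at 12.9, 23.1 and 18.2 RPKM in the order vector control, WT, S264A. The wild-type ratio of 1.79 (1.67 to 1.92) was under the rule.

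SFN encodes 14-3-3 sigma, an epithelial 14-3-3 protein that holds cyclin B-CDK1 in the cytoplasm, and is itself abundant in keratinocytes. It was by far the highest member, at 242 RPKM in the vector control, 439 RPKM in the WT line and 347 RPKM in the S264A line, above 99.2%, 99.7% and 99.6% of the genes at or above 1 RPKM. The ratio of wild type to empty vector was 1.81 (1.76 to 1.87) and that of S264A to empty vector 1.43 (1.39 to 1.48). The summed level of the other 29 members was 156, 226 and 182 RPKM in the same order, so that SFN alone exceeded all of them together in every line.

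The remaining arrest genes differed little. BTG2, an antiproliferative cofactor of mRNA deadenylation, was at 8.69 RPKM in the vector control, 9.43 RPKM in the WT line and 10.4 RPKM in the S264A line. Its wild-type log2 difference of 0.11 turned to -0.13 with upper-quartile scaling. CCNG1, which encodes cyclin G1, was at 8.35, 7.53 and 6.50 RPKM, with a ratio of 0.778 (0.677 to 0.891) for S264A over empty vector.

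Among apoptosis genes BBC3, BAX and the receptor genes were higher with wild-type THG-1 by their counting intervals, and none of them reached the 2-fold rule. BBC3, which encodes the BH3-only protein PUMA, was low in every line at 0.395 RPKM in the vector control, 1.37 RPKM in the WT line and 0.987 RPKM in the S264A line. From 32, 44 and 35 reads the wild-type ratio was 3.46 (2.15 to 5.64), which the added pseudocount of 1 reduced to a log2 difference of 0.76. BAX, the pore-forming effector, stood at 8.60, 12.4 and 11.5 RPKM in the order vector control, WT, S264A. Both THG-1 lines were above the empty vector, by 1.44 (1.27 to 1.63) and 1.33 (1.18 to 1.51), and the interval between them, 0.808 to 1.07, included 1.

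The death receptor genes FAS and TNFRSF10B were higher only in the wild-type line by the counting intervals. FAS was at 2.31 RPKM in the vector control, 3.31 RPKM in the WT line and 2.28 RPKM in the S264A line. TNFRSF10B, which encodes the TRAIL receptor DR5, was at 9.18, 12.96 and 8.79 RPKM, listed likewise. The wild-type ratio was 1.41 (1.30 to 1.54) and the S264A ratio 0.958 (0.872 to 1.05), and S264A lay 1.47-fold (1.33 to 1.64) below wild type. TNFRSF10D, which encodes a decoy TRAIL receptor without a working death domain, was at 0.538, 1.11 and 1.23 RPKM. It differed from TNFRSF10B in that both THG-1 lines were above the empty vector, by 2.06 (1.39 to 3.05) and 2.29 (1.58 to 3.31). Both receptor genes belong to a family of close paralogs, and no source used here says how shared reads were counted.

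AEN, an apoptosis-enhancing nuclease, was highest in the WT line, with 4.30 RPKM in the vector control, 7.27 RPKM in the wild-type line and 4.62 RPKM in the S264A line. Its wild-type ratio was 1.69 (1.52 to 1.89). PHLDA3, an inhibitor of AKT, was highest in S264A, at 21.9, 25.3 and 28.7 RPKM in the order vector control, WT, S264A. The wild-type log2 difference of PHLDA3, 0.20, turned to -0.05 with upper-quartile scaling, while that of S264A was 0.38. TRIAP1, an inhibitor of apoptosis through mitochondrial lipid transfer, was at 6.75, 5.17 and 6.03 RPKM, lowest with wild-type THG-1 at a ratio of 0.767 (0.603 to 0.967).

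**Figure D2:**
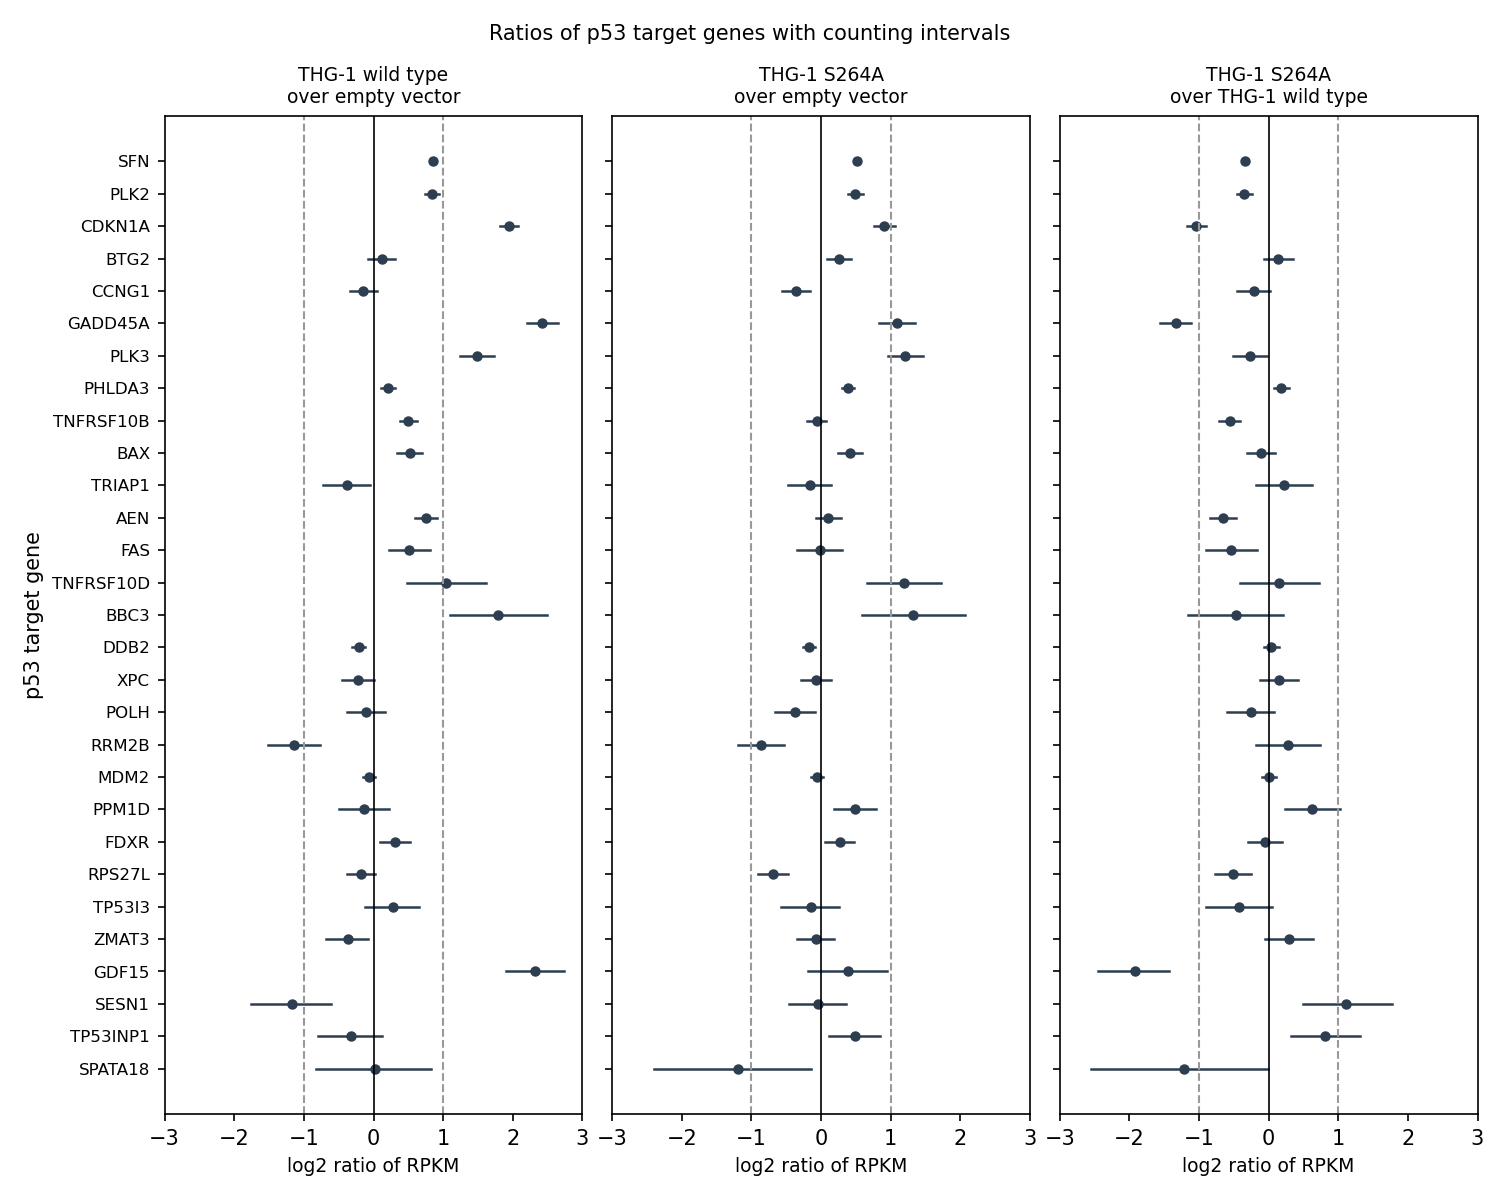
Log2 ratio of RPKM for 29 p53 target genes in the 3 comparisons (points, 1 library per line) with exact 95% counting intervals (horizontal lines); dashed lines mark a 2-fold ratio. In the left panel GADD45A, GDF15, CDKN1A, BBC3 and PLK3 lie to the right of the dashed line with their whole interval, while RRM2B and SESN1 lie around the dashed line on the left.

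DNA repair genes stood level or lower in both THG-1 lines. DDB2 and XPC encode damage sensors of nucleotide excision repair. DDB2 was at 22.8 RPKM in the vector control, 19.7 RPKM in the WT line and 20.2 RPKM in the S264A line, with ratios of 0.862 (0.810 to 0.916) and 0.886 (0.835 to 0.939). XPC was at 3.999, 3.42 and 3.79 RPKM and POLH, a translesion polymerase, at 3.49, 3.24 and 2.71 RPKM in the same order. RRM2B encodes the p53-inducible subunit of ribonucleotide reductase, and was the member with the lowest log2 difference between wild type and empty vector, -0.68. It stood at 2.24 RPKM in the vector control, 1.02 RPKM in the WT line and 1.23 RPKM in the S264A line. The ratios were 0.454 (0.348 to 0.585) and 0.550 (0.435 to 0.689), so that both THG-1 lines were below the empty vector and close to each other. RRM2, the replication-linked subunit, stood at 19.8, 27.6 and 23.7 RPKM in that order.

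The feedback genes did not follow CDKN1A. MDM2 encodes the ubiquitin ligase that degrades p53 and is itself a p53 target. Its level was 7.48 RPKM in the vector control, 7.13 RPKM in the WT line and 7.18 RPKM in the S264A line, from 3846, 1456 and 1614 reads. With ratios of 0.953 (0.897 to 1.01) and 0.959 (0.905 to 1.02), both intervals included 1. With the smallest length that gave whole reads they were 0.874 to 1.04 and 0.882 to 1.04. PPM1D, the phosphatase WIP1, was at 1.59, 1.45 and 2.24 RPKM and was highest in S264A, 1.40 times (1.14 to 1.72) the control level. With the smallest length that gave whole reads, the interval of PPM1D was 0.971 to 2.01 and included 1. MDM4, an MDM2 relative that blocks p53 activity and is no member of the set, was at 5.11, 3.07 and 4.60 RPKM, lowest with wild-type THG-1 at 0.601 (0.541 to 0.667) of the control level.

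GDF15, a secreted TGF-beta family cytokine induced by p53 and by cell stress, had the clearest contrast between both THG-1 forms. It was at 1.12 RPKM in the vector control, 5.57 RPKM in the WT line and 1.47 RPKM in the S264A line, from 75, 148 and 43 reads. Wild type was 4.97 times (3.74 to 6.65) the empty vector, whereas the S264A ratio was 1.31 (0.879 to 1.93). S264A was 3.79-fold (2.68 to 5.45) lower than wild type.

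SESN1 encodes a stress-induced inhibitor of mTORC1. It was lowest with wild-type THG-1, at 1.07 RPKM in the vector control, 0.475 RPKM in the WT line and 1.03 RPKM in the S264A line. The wild-type ratio was 0.446 (0.294 to 0.656) from 175 and 31 reads, and the ratio of S264A to the control was 0.967 (0.726 to 1.28). TP53INP1, which takes part in autophagy and cell death, was at 0.933, 0.746 and 1.30 RPKM, highest in S264A at 1.40 times (1.08 to 1.80) the control level.

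The mitochondrial and redox genes FDXR (4.75, 5.89 and 5.71 RPKM in the order vector control, WT, S264A) and TP53I3 (2.36, 2.85 and 2.13 RPKM) differed by less than 1.5-fold in every comparison. FDXR encodes ferredoxin reductase and TP53I3 a quinone oxidoreductase. ZMAT3, an RNA-binding regulator of splicing, was at 1.30, 1.00 and 1.23 RPKM. RPS27L, a paralog of the ribosomal protein gene RPS27, was at 3.21, 2.84 and 2.00 RPKM and was lowest in S264A, at 0.621 (0.534 to 0.720) of the control level. SPATA18, a gene of mitochondrial quality control, stood at 0.297, 0.302 and 0.130 RPKM from 47, 19 and 9 reads. CMBL, a carboxymethylenebutenolidase homolog, had 1 read with empty vector and 0 in both THG-1 lines, so no ratio is given.

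Promoter sequences were read for p53 elements, since the members are grouped by their control through p53 yet differed in direction. RefSeq promoter windows (build GRCh38.p14, 250 bases before to 50 after an annotated start) were at hand for 23 of the 30 members, in 34 windows. GADD45A, TNFRSF10B, TNFRSF10D, RRM2B, TP53INP1, PHLDA3 and CMBL had none. The consensus 10-base unit of the p53 response element, which reads the same on both strands, occurred without mismatch in 7 of the 34 windows (20.6%) and in 6.63% of all 35116 windows. A full element of a pair of units up to 13 bases apart occurred without mismatch in 1 member window, that of DDB2, and in 0.0285% of all windows. With up to 3 mismatches, at most 1 base between units and the C and G of each core kept, 8 members held an element (9 windows, 26.5%, against 2.38% of all windows). The MDM2 element was counted in more than 1 window. This search was chosen after the windows had been looked at. Because the members were chosen as p53 targets, their higher shares are not independent evidence of such elements. The 8 stretches of 30 bases are shown 5′ to 3′ on the strand of the gene, with the element in capitals.
DDB2: ggtttGAACAAGCCCTGGGCATGTTTggcg
MDM2: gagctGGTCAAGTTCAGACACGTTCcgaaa
FAS: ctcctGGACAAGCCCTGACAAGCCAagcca
AEN: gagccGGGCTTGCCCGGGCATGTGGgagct
SESN1: cgtctGGACAAGTCTCCACAAGTCAgaaat
RPS27L: aggagGGCCTAGAGCAGACAAGCCCgcccc
FDXR: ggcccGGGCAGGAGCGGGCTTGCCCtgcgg
GDF15: acctgcacAGCCATGCCCGGGCAAGAACtc

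The DDB2 stretch lies at chr11:47214974-47215003 with the element from base 6 after the start, and matches without mismatch. MDM2 (chr12:68808918-68808947), FAS (chr10:88991304-88991333) and AEN (chr15:88621301-88621330) have 2 mismatches, and their elements begin at bases -94, -122 and -34 relative to the start. SESN1 (chr6:109009013-109009042), RPS27L (chr15:63157522-63157551), FDXR (chr17:74872991-74873020) and GDF15 (chr19:18386178-18386207) have 3. SESN1, RPS27L and FDXR are on the minus strand. Levels of these 8 genes in the WT line lay on both sides of the control. GDF15 was at 4.97 times, AEN at 1.69 times, FAS at 1.43 times and FDXR at 1.24 times the control level. MDM2 was at 0.953, RPS27L at 0.884, DDB2 at 0.862 and SESN1 at 0.446 of it. The windows of CDKN1A and PLK3, both at least 2-fold higher, held no such element, which says only that these letters are not in this window.

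Genes that act on p53 itself were compared next, in a list of 25. None was at least 2-fold higher or lower in any comparison, against shares of 0.824% to 4.53% of all genes. The list's median was -0.14 for wild type over empty vector, -0.05 for S264A over empty vector and 0.12 for S264A over wild type. In the WT line 19 of the 25 were below the control, beside 6057 of the 11993 genes entered. By the deposited values, genes of the DNA damage response were found on both sides. ATM was at 3.59 RPKM in the vector control, 2.07 RPKM in the WT line and 2.87 RPKM in the S264A line. PRKDC, the catalytic subunit of DNA-dependent protein kinase, was at 49.0, 31.7 and 33.6 RPKM. CHEK2 was at 4.53, 2.77 and 2.94 RPKM, and TP53BP1, which encodes the repair scaffold 53BP1, at 10.5, 6.62 and 8.98 RPKM. With ratios between 0.578 for ATM and 0.646 for PRKDC, these 4 genes were within 2-fold of the empty vector. The kinase gene ATR was at 5.68, 4.70 and 5.95 RPKM, a WT ratio of 0.827 (0.760 to 0.899). CHEK1, a further checkpoint kinase gene, was higher in the WT line, at 5.01, 5.71 and 6.31 RPKM, a ratio of 1.14 (1.02 to 1.27). Its wild-type log2 difference of 0.16 turned to -0.06 with upper-quartile scaling.

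A second list held 39 further p53 targets outside the 30 members. With wild-type THG-1 3 of 35 entered passed the rule upward and none downward, beside 4.53% and 1.54% of all genes. With upper-quartile scaling KITLG passed downward, at -1.05 from -0.83. The median over the 39 was 0.01 against the control. The median was 0.09 for S264A over the control. IGFBP3, which encodes a binding protein of insulin-like growth factors, was at 6.82 RPKM in the vector control, 98.8 RPKM in the WT line and 32.7 RPKM in the S264A line. The tetraspanin gene CD82, also past the rule, stood at 6.97, 25.0 and 16.8 RPKM in that order. Against the control 3 of 34 entered passed the rule upward in S264A as well, IGFBP3 and CD82 among them, and 1 downward. The shares of all genes were 2.99% upward and 0.824% downward. With upper-quartile scaling CD82 (0.98) was just under the rule in that comparison. The gene that passed downward was TP53I11, at 2.79 RPKM in the vector control, 1.38 RPKM in the WT line and 0.612 RPKM in the S264A line. In plain RPKM it was more than 2-fold lower in the WT line too, where the pseudocount of 1 kept it at -0.67. Against wild type, IGFBP3 and THBS1, 2 of 35 entered, were at least 2-fold lower in S264A, beside 2.23% of all genes. THBS1, which encodes thrombospondin-1, was at 70.6, 136 and 59.0 RPKM in the order vector control, WT, S264A. In the quantile-normalised columns its log2 difference of -1.19 was -0.997, just under the rule.

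The apoptosis genes of this list lay on both sides of the control in the WT line. TNFRSF10A, the TRAIL receptor DR4, was at 9.56 RPKM in the vector control, 18.2 RPKM in the WT line and 9.16 RPKM in the S264A line. BID, which links death receptors to mitochondria, stood at 5.04, 10.6 and 5.42 RPKM in that order. PERP, a p53 and p63 target of desmosomes, was at 42.0, 32.4 and 40.8 RPKM, lowest with wild-type THG-1. APAF1, the apoptosome scaffold, at 3.38, 2.89 and 3.74 RPKM, and PIDD, a death domain protein, at 3.60, 2.74 and 3.33 RPKM, were also lowest there. EDA2R, TNFRSF10C and TP53AIP1 stayed below 0.4 RPKM in every line.

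**Figure D3:**
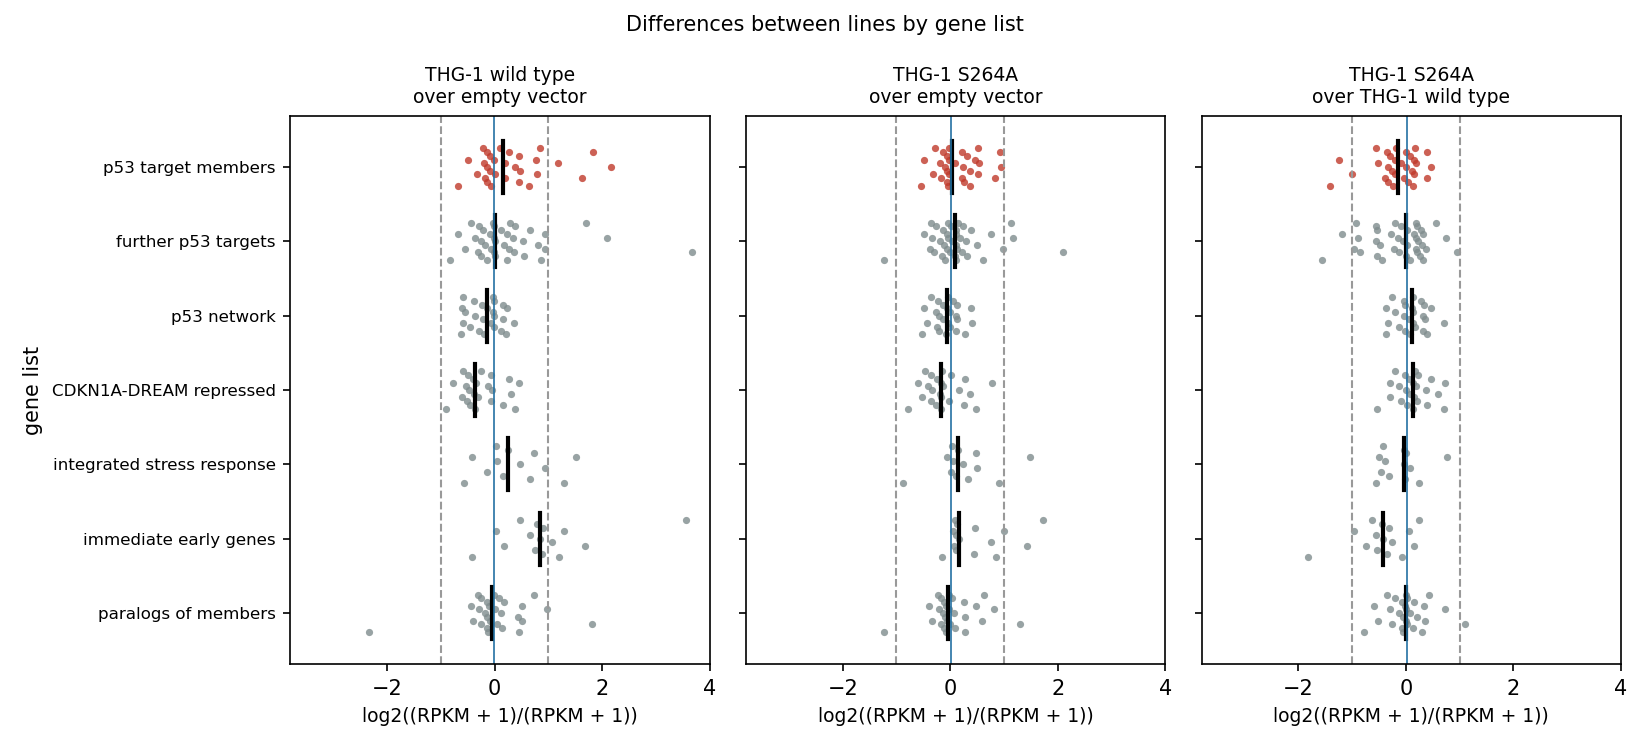
Log2((RPKM + 1)/(RPKM + 1)) of single genes (points) in 7 lists for the 3 comparisons, 1 library per line; black bars are list medians, the blue line is the median of all genes entered and dashed lines mark the 2-fold rule. The p53 target members (red) have 4 points past the rule on the right in the left panel, the CDKN1A-DREAM list has its median at -0.36 there and the immediate early genes at 0.85.

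Genes that p21 represses through the DREAM complex, mostly of the G2 phase and mitosis, stood lower with wild-type THG-1 in 19 of a list of 24, beside 6057 of the 11993 genes entered. None reached the 2-fold rule on the deposited values. Of all genes entered, 1.54% were at least 2-fold lower in the WT line and 0.824% in S264A, against the control. For WT, CCNB2 (-0.91) passed the rule in the quantile-normalised columns (-1.06) and with upper-quartile (-1.16) or equal-sum scaling (-1.06). TOP2A (-0.77) passed with upper-quartile scaling (-1.03). The list median was -0.36 for wild type and -0.17 for S264A against the empty vector, and 0.13 for S264A against wild type. CCNB2, which encodes cyclin B2, was at 52.4 RPKM in the vector control, 27.5 RPKM in the WT line and 36.0 RPKM in the S264A line. CDC25C, a phosphatase of mitotic entry, stood at 4.31, 2.79 and 2.09 RPKM in that order. PCNA, the replication clamp and also a p53 target, was lowest in the control, at 73.6, 96.3 and 126 RPKM. MKI67, the proliferation marker, was at 56.4, 68.4 and 55.6 RPKM.

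Lists of other signals known to act on CDKN1A, GADD45A, GDF15 and PLK3 were set beside them, and their part in the members' differences was not tested. Of 14 immediate early genes entered, 5 were at least 2-fold higher with wild-type THG-1, beside 4.53% of all genes entered. The list median was 0.85, against 0.17 for S264A over empty vector. DUSP5, an ERK phosphatase, stood at 1.06, 23.4 and 5.86 RPKM in the order vector control, WT, S264A, FOSL1 at 20.6, 68.4 and 57.0 RPKM, and MYC at 32.0, 80.1 and 54.6 RPKM. JUN (3.28, 8.77 and 6.68 RPKM) and EGR1 (1.77, 4.78 and 1.98 RPKM) completed the 5, and both lay under the rule with upper-quartile scaling (0.98 and 0.87). In S264A 3 of 13 entered, DUSP5, FOSL1 and DUSP6, were at least 2-fold higher than with empty vector, beside 2.99% of all genes. DUSP6, another ERK phosphatase, stood at 13.6, 25.3 and 28.4 RPKM in that order, and its log2 difference of 1.01 was 0.82 with upper-quartile scaling. Between both THG-1 lines DUSP5 was the only immediate early gene past the rule, and was 3.99-fold (3.43 to 4.66) lower in S264A. The list median was -0.43. Of all genes entered, 2.23% passed the rule downward in that comparison.

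In the integrated stress response list 2 of 12 entered were at least 2-fold higher with wild-type THG-1, beside 4.53% of all genes. The median of its 13 genes was 0.26 for WT and 0.15 for S264A over the control, and -0.03 between the THG-1 lines. TRIB3, a pseudokinase induced by ATF4, stood at 6.62 RPKM in the vector control, 20.8 RPKM in the WT line and 20.3 RPKM in the S264A line. PPP1R15A, the stress-induced phosphatase subunit GADD34, stood at 6.39, 17.1 and 12.8 RPKM in that order. In S264A only TRIB3, of 11 entered, passed the rule against the empty vector, beside 2.99% of all genes upward. DDIT3, which encodes CHOP, was at 4.69, 5.80 and 7.08 RPKM, highest in S264A.

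Paralogs of the members, 28 genes in all, had a median log2 difference of -0.04 for each THG-1 line against the empty vector. CDKN1B, which encodes the related inhibitor p27, stood at 7.75 RPKM in the vector control, 6.98 RPKM in the WT line and 7.10 RPKM in the S264A line, beside the 3.86-fold difference of CDKN1A. PLK1 was at 26.4, 21.2 and 23.5 RPKM. GADD45B stood at 3.77, 6.92 and 6.22 RPKM in that order. GADD45G had 15, 8 and 12 reads.

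The sestrin genes differed among themselves. SESN3, known chiefly as a FOXO target, stood at 5.31 RPKM in the vector control, 0.257 RPKM in the WT line and 1.69 RPKM in the S264A line, 20.6-fold (14.7 to 29.9) and 3.14-fold (2.74 to 3.60) lower. SESN2 was at 4.69, 4.18 and 4.46 RPKM, and the intervals of its ratios to the empty vector included 1. Against the vector control SESN3 was the only paralog at least 2-fold lower by the rule, 1 of 25 entered in either line. It was 6.57-fold (4.58 to 9.70) higher in S264A than in WT. PHLDA2, a placental growth regulator related to PHLDA3, was the only one at least 2-fold higher by the rule, at 14.2, 52.1 and 36.2 RPKM. Of all genes entered, 4.53% were higher and 1.54% lower in the WT line. For S264A the shares were 2.99% and 0.824%. Among the 14-3-3 genes YWHAB was at 62.7, 57.6 and 66.2 RPKM and YWHAH at 26.8, 36.6 and 21.0 RPKM, so that SFN stood above both in every line.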

How the data were processed

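RNA from 3 HaCaT-Ras lines was sequenced on an Illumina NextSeq500, per the labels' protocols, with 1 library per line. The authors deposited RPKM per gene for each library, and a second set of columns that was tested on the values and is RPKM quantile-normalised across the 3 libraries. The submitters' processing notes name the build hg19. Not given in the sources used here: aligner, counter, annotation, strandedness and library selection. Without known strand, reads of overlapping genes cannot be told apart.

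Depth was taken from genes with 1 exon of known length (GENCODE release 29), as the commonest value of the depth divided by the reads. Whole reads came out within 0.001 reads for 30 of 30 members. The GENCODE length itself gave whole reads for 19, and the smallest length that did so was used for 5 more. For MDM2, FAS, DDB2, PHLDA3, RPS27L and PPM1D a multiple of the smallest length, nearest to GENCODE, was used, so their reads may be overstated and their intervals too narrow. With the smallest length the wild-type interval of DDB2 was 0.773 to 0.958 and that of FAS 1.06 to 1.91. Where a symbol had several rows (234 symbols, no member) the row with the highest mean was used.

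With 1 library per group no p-value is given, and differences may reflect single cultures. The log2 scale with a pseudocount of 1 understates the change of low genes, and ratios are of plain RPKM. Of the members, SPATA18 and CMBL entered no count, TP53INP1 not that of wild type against empty vector, and BBC3 not that of S264A against empty vector, being under 1 RPKM in both lines. The members and lists were chosen with earlier results of these data known. Members were named in full where the log2 difference reached 0.58 in any comparison and, by role, for MDM2, BAX and CDKN1A; other genes were named where they passed the 2-fold rule, with TP63, TP73 and MDM4. Some genes that the rule names are not reported here. Further genes of the lists were picked after their values were seen. Read recovery and the counting rule were tested on simulated data. Python 3.11.15, NumPy 2.4.6, pandas 2.3.3, SciPy 1.17.1 and matplotlib 3.10.9 were used.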

Additional observations from a re-analysis of the deposited data

How the results depend on the processing

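Alternatives were pseudocounts of 0.1 and 5, no filter or one at 5 RPKM, a 1.5-fold rule, the quantile-normalised columns, scaling to equal upper quartiles, sums or medians, and sums over the rows of a symbol. For wild type against empty vector, with 27 members entered, the count of members higher was 2 with a pseudocount of 5 (GADD45A and CDKN1A) and 8 with the 1.5-fold rule. The count lower was 2 with a pseudocount of 0.1 (RRM2B and SESN1) and 1 with the 1.5-fold rule (RRM2B). The shares of all genes were 1.38% and 11% higher, and 4.1% and 6.72% lower, in the same order. For S264A against empty vector, with 27 entered, the count higher was 3 with a pseudocount of 0.1 (PLK3, GADD45A and TNFRSF10D) and 3 with the 1.5-fold rule (PLK3, GADD45A and CDKN1A). The shares of all genes higher were 5.79% and 8.56%. For S264A against wild type the count lower was 0 with a pseudocount of 5, beside 0.522% of all genes. The pseudocount and the fold rule move these counts by construction. Of the other 74 recomputed counts and medians of the members, each stayed within 1.5 times the count or within the counting interval of the middle members. That interval covers the counting error of those members only and does not measure the spread of a median. The medians against the empty vector did turn to -0.03 and -0.05 with upper-quartile scaling. For single members and the other lists 939 recomputed values stayed within these limits, 170 moved and none reversed a 2-fold difference. Over all genes, 543 were higher and 185 lower in the WT line than in the control, and the numbers were 869 and 492 with a pseudocount of 0.1, 166 and 18 with one of 5, 317 and 70 with the 5 RPKM filter, 1319 and 806 with the 1.5-fold rule and 389 and 362 with upper-quartile scaling. For S264A against the control they were 359 and 99, then 695 and 246, 85 and 9, 178 and 26, 1028 and 477, and 258 and 177 in the same order. For S264A against WT they were 187 and 269, then 509 and 518, 26 and 63, 71 and 149, 802 and 860, and 197 and 232, and were 223 and 215 with equal sums. The genes entered numbered 11993, 12010 and 12069 in the 3 comparisons. They numbered 6174, 6055 and 6148 with the 5 RPKM filter, and 12103, 12147 and 11920 with upper-quartile scaling. With equal sums 12026 entered for S264A against WT. No paired analysis was possible because each group holds 1 library, and for the same reason no library could be left out. Depth limits BBC3, SPATA18, TNFRSF10D and CMBL most, with at most 61 reads in any library.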
